A study of Mus musculus with 36 samples.

Results

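The genes described here encode the cytosolic ribosomal proteins, the protein part of the ribosomes that translate most of a cell's mRNAs. They were chosen by gene name, with earlier results of these data known. A probe set was taken when its only gene symbol began with Rpl or Rps and a number, with Rplp0, Rplp1 or Rplp2, or was Rpsa, and S6 kinase genes and pseudogenes were left out. This gave 135 probe sets of 72 genes, of 17097 genes with a probe set of their own on the array. Of the 72 genes, 46 carry names of the large (60S) subunit and 26 names of the small (40S) subunit. In all, 65 belong to the standard set, and 7 are paralogues or match the pattern without being ribosomal proteins (Rpl3l, Rpl7l1, Rpl22l1, Rpl36al, Rpl39l, Rps27l and Rps19bp1, a binding partner of the Rps19 protein). A further 15 probe sets that name a member together with another gene were not used, and Rps3, Rpl5 and Rps27a had no probe set with a single symbol.

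Whole snap-frozen kidneys of male C57BL/6 mice aged 10 to 12 weeks were profiled with the Affymetrix HT MG-430 PM array, 1 for each of 36 mice, with no genetic change in any group. After 7 days on SDS chow, which all mice received, the fasting cohort held 4 mice after 3-day fasting and 5 mice with free access to SDS. A second cohort, hybridised and normalised apart, held 5 mice after 2 weeks (14 days) of 30% dietary restriction (30%DR) and 3 mice on SDS, and 5 mice each on a protein-free and a carbohydrate-free (CHO-free) diet and 4 on a fat-free diet, each given for 3 days with free access, set against 5 mice on the Control diet, which has casein as its protein source. By the paper, protein took the whole place of carbohydrate in the CHO-free diet, and carbohydrate that of protein in the protein-free diet. These 2 diets thus differ in both nutrients, and the fat-free diet held more protein than the Control diet. Food intake is not matched between a diet and its control either. The missing nutrient, the nutrient that replaced it and the amount eaten cannot be told apart.

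Each cytosolic ribosome holds 1 copy of nearly every ribosomal protein, and the mRNAs of these proteins are among the most abundant of the cell. They start with a tract of pyrimidines, the 5′ terminal oligopyrimidine (TOP) motif. Through this motif, the nutrient-sensing kinase complex mTORC1 controls mainly how well these mRNAs are translated and stored, which an array of total mRNA does not measure. Fasting and low protein intake are known to lower mTORC1 activity in many tissues, and the protein of Rps6 is the classical readout of the S6 kinases downstream of it.

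The start of the transcript is where this motif lies, and 8 members are shown because the results below turn on them or because they hold a long tract. The sequences are those of RefSeq on GRCm38.p6, from 15 bases before to 15 bases after an annotated start, read 5′ to 3′ on the strand of the gene, with the longest run of C and T in capitals. A run that lies before the start, as in Rplp0 and Rpl9, is not part of the annotated transcript. Whether a marked run is a TOP motif was not tested. Rpl12 lies at chr2:32961697-32961726 (plus strand), Rps9 at chr7:3704026-3704055 (plus), Rps6 at chr4:86857353-86857382 (minus), Rplp0 at chr5:115559452-115559481 (plus), Rpl9 at chr5:65391417-65391446 (minus), Rpl15 at chr14:18270972-18271001 (minus), Rpl7a at chr2:26910792-26910821 (plus) and Rplp2 at chr7:141447636-141447665 (plus).
Rpl12: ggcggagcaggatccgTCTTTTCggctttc
Rps9: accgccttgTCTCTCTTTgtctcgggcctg
Rps6: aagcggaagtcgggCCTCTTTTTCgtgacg
Rplp0: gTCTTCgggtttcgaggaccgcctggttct
Rpl9: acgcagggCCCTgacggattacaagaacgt
Rpl15: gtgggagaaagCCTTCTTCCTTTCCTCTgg
Rpl7a: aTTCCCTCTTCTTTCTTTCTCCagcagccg
Rplp2: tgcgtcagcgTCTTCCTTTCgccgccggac
An entry was found for 58 of the 72 genes, with 69 annotated starts. A run of at least 8 pyrimidines lay in this window, before or after the start, at 25 of the 69 starts (36.2%), against 12% of 75 starts of mitochondrial ribosomal proteins and 12% of all 32851 starts. In the 300 bases around the start, the letters CCGGAAG on either strand, a core bound by ETS factors, were found at 37.7% of the starts of cytosolic ribosomal proteins, 34.7% of those of mitochondrial ribosomal proteins and 8.86% of all. The letters AAGATGG, the core of the YY1 motif, were found at 15.9%, 17.3% and 6.34%. The 2 motifs can overlap by the AAG that both hold, and a match describes these letters only.

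The members gave bright and even signals. By the brightest probe set of each gene, 66 of 72 genes averaged above 10 on the log2 scale in both cohorts, and the median gene averaged 12.15 in the fasting cohort and 11.89 in the other, where the median over all probe sets was 4.18 and 3.71. Only Rpl39l, Rpl3l and Rps15a averaged below 5. Rpl3l and Rpl39l, paralogues known mainly from striated muscle and testis, lay at 3.75 and 2.91 in the fasting cohort and 3.36 and 2.81 in the other. Mice of 1 group differed little in these genes, with a median SD between mice of 0.061 in the fasting cohort (0.119 over all genes, 0.0843 over genes above 10) and 0.140 in the other (0.175 and 0.152). The largest SD was that of Rpl14 in the fasting cohort (0.228) and of Rpl9 in the other (0.302). Of the 135 probe sets, 52 carry an ending that marks probes shared between transcripts, and since ribosomal protein genes have many pseudogene copies, such a probe set may read more than 1 transcript.

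RNA integrity differed between groups and is given beside the results. The measure is the signal of the 3′ minus that of the 5′ control probe set of Gapdh, which grows as RNA is broken or copied incompletely. It averaged 1.85 ± 0.62 (SD, n = 5) in CHO-free and 0.82 ± 0.14 (SD, n = 5) in Control kidneys, with no overlap (p = 0.00794 by a 2-sided exact permutation test, the smallest it can give, and 0.0476 when adjusted over 6 comparisons). The CHO-free mice TS34 and TS35 both had 2.45, the highest values of all arrays. The other comparisons did not pass, with the smallest adjusted p = 0.0714 for fat-free by the same exact permutation test. The control probe sets of 18S ribosomal RNA, the RNA core of the small subunit, were lower in CHO-free than in Control kidneys by -0.73 (5′, adjusted p = 0.00624) and -0.75 (middle, adjusted p = 0.0160) and had -0.50 at the 3′ end (adjusted p = 0.0890). With the Gapdh difference as a covariate these values were -0.35, -0.34 and -0.13, with the smallest adjusted p = 0.454. Labelled cDNA is made from poly(A) RNA, so these signals are not a measure of ribosome number. As a check of the tissue, Slc12a3, the salt transporter of the distal convoluted tubule, lay between 10.30 and 11.39 on every array. The Control array of mouse TS29 had the lowest median signal of its cohort (3.62, range of the cohort 3.62 to 3.76).

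**Figure D1:**
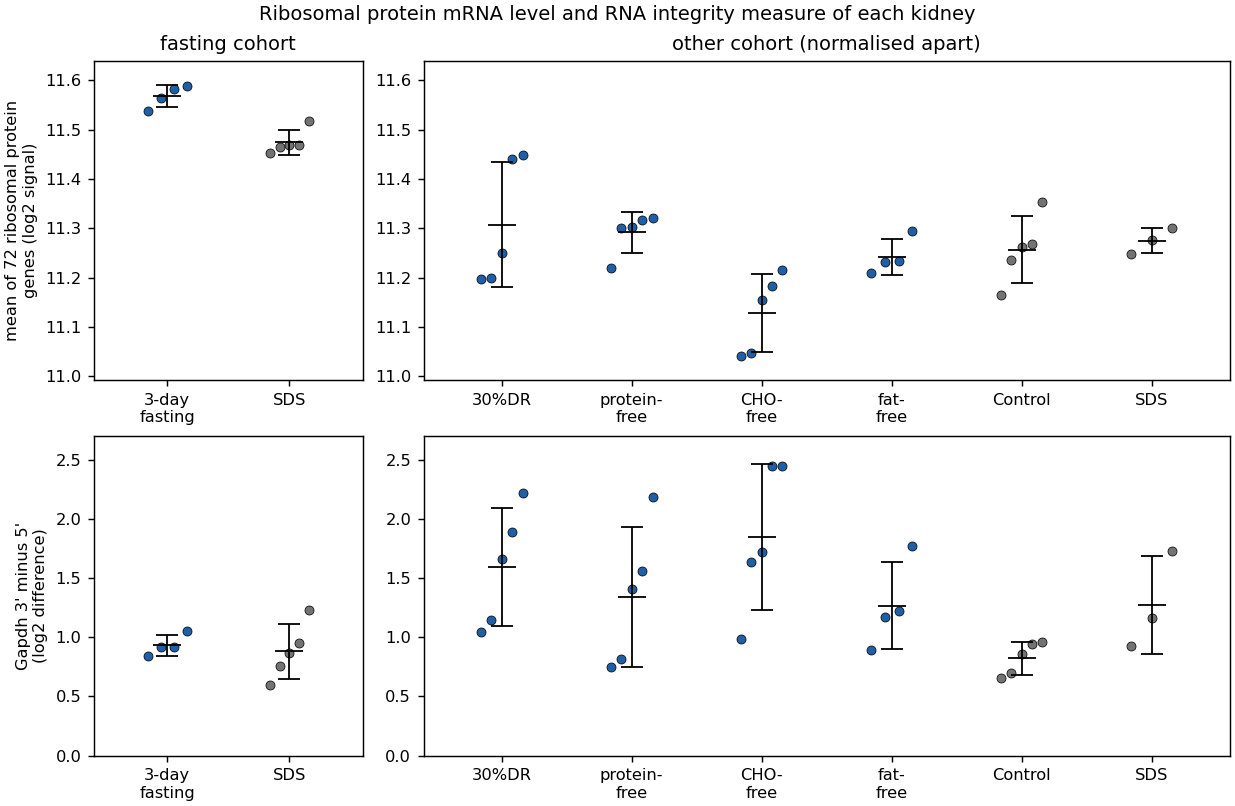
Mean log2 signal of the 72 ribosomal protein genes (upper row) and the Gapdh 3′ minus 5′ log2 difference (lower row) of each kidney, 1 point per mouse, with the mean and SD of each group, blue for diets and grey for their controls. The 4 fasted kidneys sit between 11.54 and 11.59, above the 5 SDS kidneys at 11.45 to 11.52, and the CHO-free mice TS34 and TS35 have the lowest ribosomal protein means of their cohort (11.04 and 11.05) and the highest Gapdh differences (2.45 each).

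After 3-day fasting, the mRNAs of many cytosolic ribosomal proteins were slightly higher. The largest increase by the brightest probe set of a gene was that of Rpl12, a protein of the stalk base of the 60S subunit, which rose 1.22-fold, followed by Rpl24, Rpl3, Rpl36 and Rps16. Of the 135 probe sets, 24 rose and 5 fell at a false discovery rate under 5% (by limma, over all 45141 probe sets), where 10.1% of all probe sets rose and 9.54% fell, so that the share of members that rose was above the share of all probe sets and the share that fell was below it. By 1 probe set per gene, 14 rose, 1 fell and 57 of 72 did not pass (10.8% of all genes rose and 12.5% fell), and 60 of 72 were above 0. The median log2 fold change of the 72 genes was 0.13, against -0.01 over all genes, with 0.13 for the 41 standard genes of the large and 0.15 for the 24 of the small subunit. Differentially expressed probe sets (DEPS), with a fold change of at least 1.5 as well, were 1 higher and 1 lower, where 2.63% and 2.68% of all probe sets were, a larger share than among the members. Kidney is a mixture of cells, and a lower share of a cell type cannot be told apart from less RNA per cell.

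Rpl12 had 11.00, 10.94, 10.93 and 10.96 in fasted kidneys, against 10.59, 10.57, 10.69, 10.72 and 10.78 in SDS kidneys (log2 fold change 0.29, SE 0.06, adjusted p = 0.00569). All fasted kidneys lay above all SDS kidneys. Rpl3, an essential protein next to the peptidyl transferase centre, had 12.09, 12.12, 12.13 and 12.21 in fasted kidneys, against 11.82, 11.90, 11.88, 11.90 and 11.93 in SDS kidneys (0.25, SE 0.05, adjusted p = 0.00656). Rps6 had 12.71, 12.71, 12.67 and 12.79 in fasted kidneys, against 12.48, 12.56, 12.58, 12.58 and 12.54 in SDS kidneys (0.17, SE 0.05, adjusted p = 0.0392). In both genes the groups did not overlap, as in 47 of the 135 probe sets, where 17.2% of all probe sets did not overlap. Rpl11, which with Rpl5 and the 5S RNA binds MDM2 outside the ribosome, had 12.33, 12.25, 12.34 and 12.21 in fasted kidneys, against 12.18, 12.08, 12.04, 12.14 and 12.07 in SDS kidneys (0.18, SE 0.06, adjusted p = 0.0421). Its groups did not overlap either. The same direction passed for Rpl24 (0.25), which forms a bridge to the small subunit, for Rpl36 (0.25 and 0.29 by its 2 probe sets), for Rps16 (0.24) near the P site, and for Rpl32 (0.21), Rps14 (0.20), Rps23 (0.18) and Rps3a1 (0.17), all structural proteins. Rps20, a protein of the 40S head, had the largest increase of a dimmer probe set after Rpl22 (0.43). That probe set averaged 3.52 in fasted and 3.10 in SDS kidneys, below the median of all probe sets (4.18). Of the 4 probe sets of Rps20, 1 passed, and the brightest averaged 12.66 in fasted and 12.58 in SDS kidneys. Each of the 3 probe sets of Rpl23 rose (0.20, 0.21 and 0.28), and so did 3 of 4 of Rpl37 (0.17, 0.20 and 0.23).

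Other members with known roles did not pass. The acidic stalk proteins, which recruit the translation GTPases, were among them. Rplp0 had 12.26, 12.13, 12.14 and 12.21 in fasted kidneys, against 12.14, 12.16, 12.13, 12.10 and 12.14 in SDS kidneys (0.05, SE 0.05, adjusted p = 0.584). Rplp1 had 12.59, 12.57, 12.58 and 12.59 in fasted kidneys, against 12.57, 12.59, 12.56, 12.66 and 12.59 in SDS kidneys (-0.01, SE 0.05). Rplp2 had 12.05, 11.84, 11.83 and 12.06 in fasted kidneys, against 11.95, 11.88, 11.88, 11.97 and 11.83 in SDS kidneys (0.04, SE 0.07). The groups of all 3 stalk genes overlapped. Rpsa, the 40S protein also known as a laminin receptor, had 11.50, 11.51, 11.59 and 11.55 in fasted kidneys, against 11.51, 11.59, 11.61, 11.64 and 11.54 in SDS kidneys (-0.04, SE 0.05). Rpl10, which completes the 60S subunit late in its assembly, had 12.42, 12.47, 12.52 and 12.57 in fasted kidneys, against 12.44, 12.50, 12.48, 12.41 and 12.47 in SDS kidneys (0.04, SE 0.06). Rpl13a, known also for silencing inflammatory mRNAs, had 12.22, 12.18, 12.27 and 12.23 in fasted kidneys, against 11.96, 12.07, 12.13, 12.23 and 12.10 in SDS kidneys (0.12, SE 0.06, adjusted p = 0.212). In these 3 genes the groups overlapped too.

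The 2 DEPS were both dimmer probe sets of their genes. Rpl22, a 60S protein that cells can do without, had 7.84, 8.22, 8.15 and 8.13 in fasted kidneys by probe set 1448398_PM_s_at, against 7.10, 7.54, 7.40, 7.30 and 7.57 in SDS kidneys (0.71, SE 0.11, adjusted p = 0.000802). The brighter probe set of Rpl22 had 0.13 (SE 0.07, adjusted p = 0.206). Rpl31, at the exit of the peptide tunnel, had 6.35, 6.39, 6.27 and 6.29 in fasted kidneys by probe set 1420381_PM_a_at, against 6.85, 6.89, 6.89, 7.21 and 6.80 in SDS kidneys (-0.61, SE 0.08, adjusted p = 0.000399). Its groups did not overlap, but the other 3 probe sets of Rpl31 had 0.02, 0.03 and 0.07 and did not pass. The lowest member by the brightest probe set was Rpl14, whose probe set is dim for a member but above the median of all probe sets (4.18). It had 5.09, 4.74, 4.39 and 4.78 in fasted kidneys, against 5.05, 5.05, 5.22, 5.25 and 5.47 in SDS kidneys (-0.46, SE 0.13, adjusted p = 0.0279). Its groups overlapped by mouse K339. Next were Rpl39l (-0.17), Rpl3l (-0.15), Rpl41 (-0.14) and Rps19bp1 (-0.12), which did not pass. Lower values also passed for 1 of 2 probe sets of Rpl15 (-0.48, the other 0.12), 1 of 3 of Rpl7l1 (-0.44, the others -0.09 and 0.08), a 60S assembly protein related to Rpl7, and 1 of 3 of Rpl17 (-0.19), of which another rose (0.18).

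The integrity measure was level in this cohort (0.93 ± 0.09, SD, n = 4, in fasted and 0.88 ± 0.23, SD, n = 5, in SDS kidneys), and with it as a covariate 16 of 135 probe sets were higher and 5 lower, where 9.47% and 9.21% of all were, and the gene median was 0.12. With the same difference of the beta-actin control probe sets as the covariate, which was 2.47 ± 0.17 (SD, n = 4) in fasted and 2.18 ± 0.20 (SD, n = 5) in SDS kidneys (exact permutation test, p = 0.0714, adjusted p = 0.129), 3 were higher and 3 lower, where 4.89% and 5.92% of all were, and the gene median was 0.11. Where 29 members passed with all mice, 14 passed without SDS mouse K348 and 14 without fasted mouse K343. The shares of all probe sets without these mice are not given here, so these counts do not set the members apart from the whole array. Markers of other cells fell in the same comparison, with both measured proximal tubule markers (summed log2 levels of 18.20 to 19.01 in fasted and 19.24 to 20.19 in SDS kidneys), 3 of 5 leukocyte markers (summed log2 levels of 30.64 to 32.01 in fasted and 33.10 to 35.53 in SDS kidneys) 2 of 2 fibroblast markers (9.60 to 10.19 in fasted and 12.28 to 12.94 in SDS kidneys), 2 of 2 erythroid markers (16.19 to 16.93 in fasted and 17.70 to 19.62 in SDS kidneys), 1 of 2 endothelial markers (13.52 to 14.44 in fasted and 13.62 to 14.36 in SDS kidneys) and the principal cell marker Aqp2 (6.36 to 7.09 in fasted and 7.04 to 7.55 in SDS kidneys) lower, while 1 of 2 intercalated cell markers rose, and their part in the member values was not tested.

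**Figure D2:**
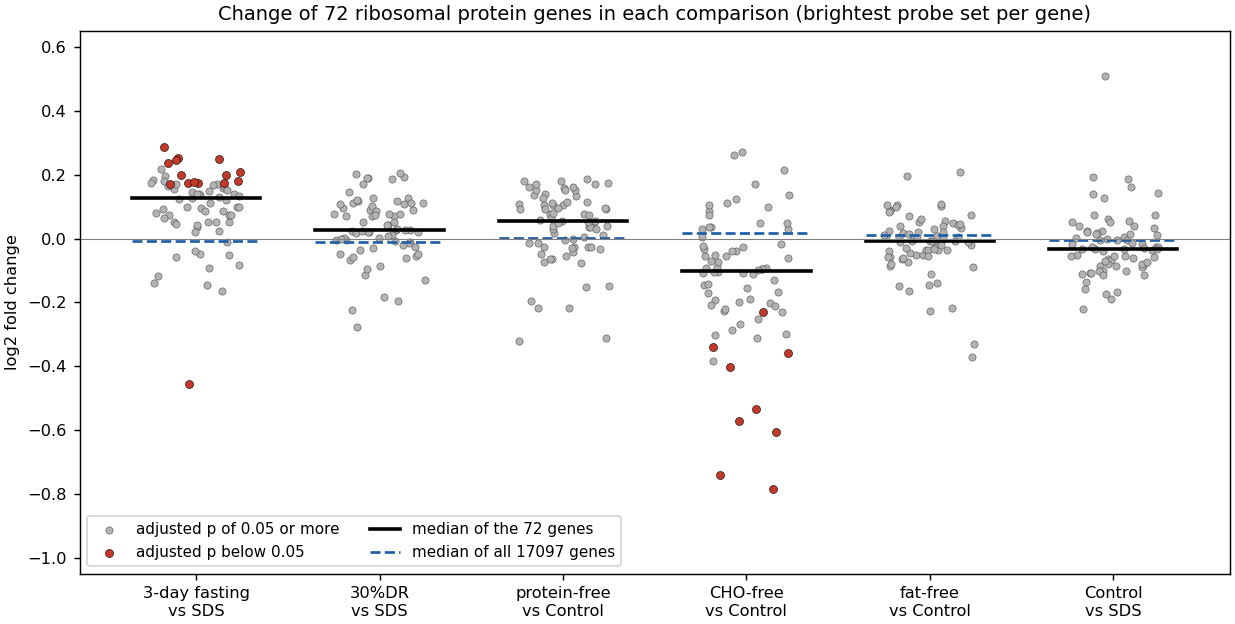
Log2 fold change of the 72 ribosomal protein genes in each comparison with its own control, 1 point per gene by its brightest probe set, red where the adjusted p was below 0.05. The black line is the median of the 72 genes and the dashed blue line that of all 17097 genes, and the black line lies at 0.13 after fasting and at -0.10 on the CHO-free diet.

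After 2-week 30%DR, no ribosomal protein passed. By limma, 0 of 135 probe sets were DEPS and 0 passed the false discovery rate, where 0.919% and 1.49% of all probe sets did. An unadjusted p under 0.05 was found for 9 members (6.67%) and for 12.4% of all probe sets. The gene median was 0.03 (all genes -0.01), with 48 genes above 0 and 24 below. Rpl36, a small 60S protein, was the highest member and had 11.51, 11.57, 11.54, 11.57 and 11.64 in 30%DR kidneys, against 11.35, 11.31 and 11.42 in SDS kidneys (0.20, SE 0.09, adjusted p = 0.335). The groups of Rpl36 did not overlap, as in 8 of the 135 members, where 8.42% of all probe sets did not. It was followed by Rpl21 (0.20), Rpl22 (0.19), Rpl27 (0.19) and Rps18 (0.19), all structural proteins. Rpl7l1 was the lowest and had 7.35, 7.85, 7.64, 7.81 and 7.82 in 30%DR kidneys, against 8.0, 7.86 and 8.05 in SDS kidneys (-0.28, SE 0.10, adjusted p = 0.225). Its groups did not overlap either, and Rps19bp1 (-0.22), Rpl9 (-0.20), Rpl3l (-0.18) and Rpl41 (-0.13), the shortest ribosomal protein, followed.

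The 30%DR mice fell into a higher and a lower set. The mean of the 72 genes was 11.44 and 11.45 in mice TS73 and TS76 and 11.20, 11.25 and 11.20 in mice TS75, TS77 and TS78, against 11.28, 11.25 and 11.30 in the SDS mice. The first pair had the lowest Gapdh differences of the group (1.04 and 1.15), and the others 2.22, 1.89 and 1.66. The SDS mice had Gapdh differences of 1.73, 1.16 and 0.93, in the order of their means above. When the Gapdh difference entered the fit, 59 of 72 genes were above 0 with a median of 0.08 (all genes -0.01). By limma, 0 of 135 then passed (1.57% of all probe sets did), with 7 of 135 (5.19%) at an unadjusted p under 0.05, against 12.2% of all. Rplp0 had 11.74, 11.34, 11.72, 11.29 and 11.47 in 30%DR kidneys, against 11.39, 11.49 and 11.67 in SDS kidneys (-0.00, SE 0.16). Rps6 had 12.50, 12.68, 12.44, 12.59 and 12.59 in 30%DR kidneys, against 12.56, 12.55 and 12.57 in SDS kidneys (-0.00, SE 0.08). Rplp0 was highest and Rps6 was lowest in TS73 and TS76, and the groups of both overlapped. Rpl11 had 11.90, 11.38, 11.91, 11.58 and 11.42 in 30%DR kidneys, against 11.60, 11.49 and 11.45 in SDS kidneys (0.13, SE 0.12), again highest in that pair. The remaining role members lay between -0.06 (Rpl10) and 0.10 (Rplp2), with overlapping groups.

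On the 3-day protein-free diet no member passed either. By limma, 0 of 135 were DEPS and 0 passed the false discovery rate, where 0.738% and 1.69% of all probe sets did. An unadjusted p under 0.05 was found for 14 members (10.4%) and for 12.9% of all probe sets. The gene median was 0.05 (all genes 0.00), with 48 genes above 0. The highest was Rps14, a 40S protein at the platform, which had 12.24, 12.30, 12.20, 12.40 and 12.31 in protein-free kidneys, against 11.98, 12.11, 11.96, 12.14 and 12.32 in Control kidneys (0.19, SE 0.10, adjusted p = 0.483). Its groups overlapped by the Control mouse TS30. Rps3a1, Rps18, Rpl35 and Rpl21 had 0.18, 0.18, 0.17 and 0.17. The lowest was Rpl7l1, with 7.69, 7.52, 7.76, 7.76 and 7.68 in protein-free kidneys, against 7.85, 7.90, 7.95, 8.18 and 8.13 in Control kidneys (-0.32, SE 0.09, adjusted p = 0.0684). No value of Rpl7l1 was shared by both groups, as in 5 of the 135 members, where 3.46% of all probe sets did not overlap.

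With the Gapdh difference as a covariate, which averaged 1.34 ± 0.59 (SD, n = 5) in protein-free and 0.82 ± 0.14 (SD, n = 5) in Control kidneys, Rpl7l1 passed (-0.38, SE 0.09, adjusted p = 0.0323) and was the only one of the 135, where 1.12% of all probe sets passed. There were then 27 members (20%) at an unadjusted p under 0.05, where 10.8% of all probe sets were. Of the 72 genes, 62 were above 0 with a median of 0.11 (all genes 0.00). Without the covariate, Rpl3 had 11.95, 12.01, 12.02, 11.97 and 11.99 in protein-free kidneys, against 11.87, 11.87, 11.82, 11.83 and 11.78 in Control kidneys (0.15, SE 0.06, adjusted p = 0.284). Rpl10 had 12.66, 12.71, 12.74, 12.62 and 12.59 in protein-free kidneys, against 12.47, 12.59, 12.62, 12.45 and 12.39 in Control kidneys (0.16, SE 0.06, adjusted p = 0.194). All protein-free kidneys lay above all Control kidneys in Rpl3, and the groups of Rpl10 overlapped. Rps6 had 12.68, 12.62, 12.70, 12.46 and 12.50 in protein-free kidneys, against 12.65, 12.49, 12.53, 12.39 and 12.33 in Control kidneys (0.12, SE 0.07). Rplp0 had 11.19, 11.89, 11.68, 11.47 and 11.80 in protein-free kidneys, against 11.45, 11.68, 11.74, 11.71 and 11.70 in Control kidneys (-0.05, SE 0.14). Both overlapped, and Rplp0 was lowest in mouse TS49, which had the largest Gapdh difference of its group. Of the other role members, Rpsa had 0.16, Rplp1 0.06, Rpl11 0.04, Rpl13a -0.00 and Rplp2 -0.04. Rpl3l (-0.31), Rps2 (-0.22) of the 40S entry channel and Rps19bp1 (-0.22) were low and did not pass.

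On the 3-day CHO-free diet several ribosomal protein mRNAs were lower. Rps9, an early-binding 40S protein, fell by 0.78 on the log2 scale, and Rps13, Rpl9, Rplp0, Rps10, Rps19 and Rpl6 fell by 0.23 to 0.77. Rps9 is measured by probe set 1433689_PM_s_at alone, and the brightest of Rps13 is 1448142_PM_x_at, both with endings that mark shared probes. Of the 135 probe sets, 4 were higher and 14 lower at a false discovery rate under 5%, where 5.51% and 4.85% of all probe sets were. DEPS were 0 higher and 7 lower (1.35% and 2.25% of all). The share of members that fell was above that of all probe sets by both rules, and the share that rose was below it. By 1 probe set per gene, 0 rose, 9 fell and 63 of 72 did not pass (5.85% of all genes rose and 6.38% fell), and 54 were below 0. Their median was -0.10 (all genes 0.02), with -0.10 in the large and -0.18 in the small subunit.

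Rps9 had 10.67, 11.13, 10.09, 10.06 and 10.69 in CHO-free kidneys, against 11.15, 11.21, 11.41, 11.20 and 11.59 in Control kidneys (-0.78, SE 0.17, adjusted p = 0.00456). The groups did not overlap, as in 12 of the 135 members, where 5.39% of all probe sets did not, and mice TS34 and TS35 were the lowest by far. Rplp0 had 11.22, 11.52, 10.82, 10.74 and 11.12 in CHO-free kidneys, against 11.45, 11.68, 11.74, 11.71 and 11.70 in Control kidneys (-0.57, SE 0.14, adjusted p = 0.00762). Its groups overlapped by CHO-free mouse TS32 and Control mouse TS26. Rpl9, near the stalk base, had 11.35, 12.00, 10.87, 11.02 and 11.71 in CHO-free kidneys, against 11.85, 12.10, 12.17, 12.13 and 12.41 in Control kidneys (-0.74, SE 0.18, adjusted p = 0.00778). Here too the groups overlapped by mouse TS32. Rps13, a 40S protein, had 10.51, 10.51, 9.83, 9.76 and 10.30 in CHO-free kidneys by its brightest probe set, against 10.63, 10.69, 11.08, 10.60 and 10.93 in Control kidneys (-0.61, SE 0.15, adjusted p = 0.00832). Rps10 (-0.40), Rps19 (-0.34), whose human gene is mutated in Diamond-Blackfan anemia, and Rpl6 (-0.23) fell as well, and so did the dim Rpl14 (-0.36) and Rpl3l (-0.53).

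The 4 probe sets that rose were not the brightest of their genes. Rps24 had 6.98, 6.91, 7.33, 7.47 and 7.37 in CHO-free kidneys by probe set 1455195_PM_at, against 6.44, 6.66, 6.32, 6.66 and 7.07 in Control kidneys (0.58, SE 0.11, adjusted p = 0.00157). The groups overlapped, and the other 4 probe sets of Rps24 had values of -0.31 to -0.06 and did not pass. Rpl13 (0.46), Rpl27 (0.33) and Rpl36 (0.32) rose by 1 probe set each. The highest by the brightest probe set was Rpl27, which had 10.76, 10.41, 11.12, 10.84 and 10.59 in CHO-free kidneys, against 10.48, 10.43, 10.52, 10.42 and 10.52 in Control kidneys (0.27, SE 0.10, adjusted p = 0.0915). It was highest in mice TS34 and TS35 and was slightly below the lowest Control value in mouse TS32. Rpl35 (0.26), Rpsa (0.21), Rpl36 (0.17) and Rps15a (0.14), whose probe set is near the floor of the array, were next and did not pass.

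Probe sets of 1 gene disagreed where the calls were made. Rpl22 fell by 0.78 and Rpl31 by 0.65 with the same dimmer probe sets that were DEPS after fasting, while the brightest probe set had -0.05 for Rpl22 and 0.05 for Rpl31 and did not pass. Rpl22 had 5.69, 6.75, 5.49, 5.73 and 6.35 in CHO-free kidneys by that probe set, against 6.62, 7.00, 6.45, 6.75 and 7.08 in Control kidneys. Rpl31 had 6.12, 6.04, 6.15, 5.93 and 6.07 in CHO-free kidneys, against 6.56, 6.67, 6.70, 6.54 and 7.12 in Control kidneys. The groups overlapped in Rpl22 and not in Rpl31. Rpl10 fell by 0.60 with probe set 1415942_PM_at, and its brighter one had 12.30, 12.35, 12.42, 12.37 and 12.36 in CHO-free kidneys, against 12.47, 12.59, 12.62, 12.45 and 12.39 in Control kidneys (-0.14, SE 0.06, adjusted p = 0.112). The third probe set of Rps13 had 0.34 (adjusted p = 0.118), and the second of Rpl9 had 0.21. Rpl15 fell by 0.54 with 1 of its 2 probe sets (the other -0.05).

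Role members that did not pass were Rplp1, with 12.41, 12.48, 12.29, 12.33 and 12.45 in CHO-free kidneys, against 12.45, 12.53, 12.50, 12.52 and 12.50 in Control kidneys (-0.11, SE 0.06), and Rplp2, with 11.72, 11.73, 11.62, 11.48 and 11.54 in CHO-free kidneys, against 11.74, 11.88, 12.01, 11.80 and 11.83 in Control kidneys (-0.23, SE 0.09, adjusted p = 0.105). Values of Rplp2 did not overlap between the groups, and those of Rplp1 did. Rpl13a had 11.61, 11.85, 11.49, 11.49 and 11.81 in CHO-free kidneys, against 11.87, 11.90, 11.84, 11.94 and 12.21 in Control kidneys (-0.30, SE 0.10, adjusted p = 0.052). Rpl3 had 11.79, 11.89, 11.60, 11.57 and 11.86 in CHO-free kidneys, against 11.87, 11.87, 11.82, 11.83 and 11.78 in Control kidneys (-0.09, SE 0.06). Both were lowest in mice TS34 and TS35. Rps6 had 12.48, 12.43, 12.41, 12.44 and 12.51 in CHO-free kidneys, against 12.65, 12.49, 12.53, 12.39 and 12.33 in Control kidneys (-0.02, SE 0.07). Rpl11 had 11.55, 11.51, 11.29, 11.39 and 11.57 in CHO-free kidneys, against 11.36, 11.50, 11.38, 11.72 and 11.87 in Control kidneys (-0.10, SE 0.11). The groups overlapped in Rps6, the S6 kinase substrate, and in Rpl11. Rpsa went the other way, with 11.79, 11.54, 12.04, 11.88 and 11.65 in CHO-free kidneys, against 11.64, 11.66, 11.54, 11.63 and 11.36 in Control kidneys (0.21, SE 0.09, adjusted p = 0.15).

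The 14 lower probe sets were set beside RNA integrity. Mice TS34 and TS35 were the lowest pair of CHO-free arrays for 10 of them, which were picked as lower in the group that holds both mice. Rps9 was at its lowest in the mouse with the largest Gapdh difference in 5 of the 6 groups of the cohort (CHO-free TS35, 30%DR TS75, its SDS control TS55, fat-free TS37 and protein-free TS49), and so was the brightest probe set of Rps13. By the probe sets that passed, this held in 4 groups for Rpl10, Rpl6, Rplp0 and the second of Rps13. It held in 3 groups for Rpl9, Rps10, Rpl22 and Rps19, in 2 for Rpl3l, in 1 for Rpl31 and Rpl14, and in none for Rpl15. The CHO-free group, by which these 14 probe sets were picked, is 1 of the 6 groups. No such count over all probe sets is given here, so this tally has no share to set beside it. With the Gapdh difference as a covariate, 0 of 135 members passed by limma, where 0.693% of all probe sets were higher and 0.6% lower. An unadjusted p under 0.05 was then found for 11 members (8.15%) and for 11.1% of all probe sets. The median of the 14 lower probe sets was -0.19 with the covariate and -0.58 without, and that of the 4 higher ones 0.22 with and 0.39 without. With the covariate, the median of the 72 genes was -0.01 (all genes 0.01). Rpl31 (-0.58, SE 0.16, adjusted p = 0.080) and Rpl3l (-0.50, SE 0.15, adjusted p = 0.122) moved least, and Rps10 had -0.04. Without mice TS34 and TS35, Rpl31 was the only DEPS among the members (-0.64, 1.25% of all probe sets were DEPS), and Rps24 by its 1455195 probe set (0.46) was the only other one to pass (2.42% of all did). Of the cell markers, those of intercalated cells rose in CHO-free kidneys (2 of 2, summed log2 levels of 17.77 to 18.68, against 15.42 to 17.00 in Control kidneys) and leukocyte markers fell (2 of 5, 27.72 to 29.74, against 29.63 to 33.46 in Control kidneys), while Aqp2 rose (0.51) and 1 of 2 proximal tubule markers, Slc5a2, fell (-0.51), and their part in the member values was not tested. Every CHO-free mouse had a larger Gapdh difference (0.98 in TS32 and 1.64 to 2.45 in the others) than any Control mouse (0.65 to 0.96), so that diet and integrity can be told apart only in part.

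**Figure D3:**
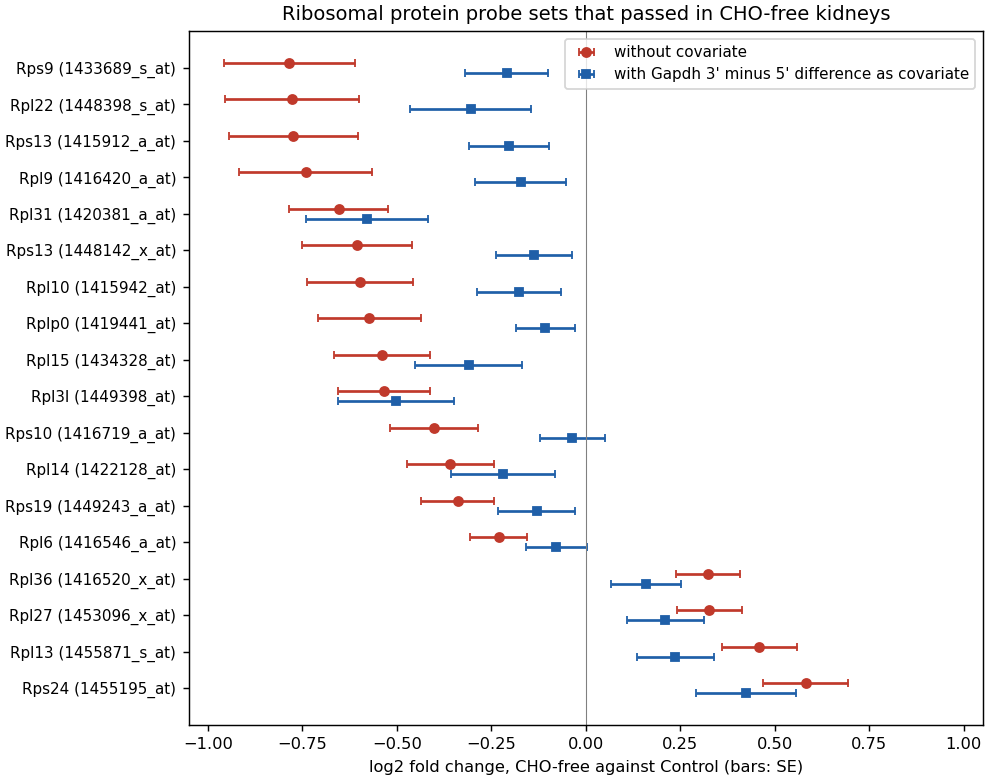
Log2 fold change of CHO-free against Control kidneys (bars are SE) for the 18 ribosomal protein probe sets that passed, without (red circles) and with (blue squares) the Gapdh 3′ minus 5′ difference as a covariate. Rps9 moves to -0.21 with the covariate, against -0.78 without it, and Rpl31 to -0.58, against -0.65.

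On the 3-day fat-free diet no ribosomal protein passed. By limma, 0 of 135 passed, as did 0 of all 45141 probe sets, and 4 members (2.96%) had an unadjusted p under 0.05, against 4.63% of all. Over the 72 genes the median was -0.01 (all genes 0.01), with 33 genes above 0 and 39 below. The highest was Rps12, a 40S protein, which had 10.48, 10.50, 10.46 and 10.64 in fat-free kidneys, against 10.09, 10.54, 10.30, 10.27 and 10.36 in Control kidneys (0.21, SE 0.09, adjusted p = 0.998). The lowest was the dim Rpl14, with 4.99, 5.32, 4.57 and 4.79 in fat-free kidneys, against 5.21, 5.44, 5.42, 5.21 and 5.18 in Control kidneys (-0.37, SE 0.12, adjusted p = 0.998). Both pairs of groups overlapped, while those of 1 of the 135 members did not (1.61% of all probe sets). Rpl3l (-0.33), Rps9 (-0.23), Rps13 (-0.22) and Rpl9 (-0.16) were the next lowest, and Rpl35 (0.20), Rps18 (0.11), Rpl39l (0.11) and Rpsa (0.11) the next highest, none of which passed. Rplp0 had 11.25, 11.67, 11.58 and 11.57 in fat-free kidneys, against 11.45, 11.68, 11.74, 11.71 and 11.70 in Control kidneys (-0.14, SE 0.14). Rps6 had 12.46, 12.58, 12.52 and 12.43 in fat-free kidneys, against 12.65, 12.49, 12.53, 12.39 and 12.33 in Control kidneys (0.02, SE 0.07). The groups of both genes overlapped, as did those of the other role members, which lay between -0.08 (Rplp2) and 0.11 (Rpsa).

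Between the 2 control diets no ribosomal protein passed. By limma, 0 of 135 passed in Control against SDS kidneys, where 0.0554% of all probe sets did. In this comparison 4 members (2.96%) had an unadjusted p under 0.05, against 6.34% of all. The median was -0.03 (all genes -0.00). The highest was Rpl3l, which lies near the floor of the array and had 3.63, 3.97, 3.87, 3.58 and 3.71 in Control kidneys, against 3.09, 3.39 and 3.25 in SDS kidneys (0.51, SE 0.14, adjusted p = 0.316). Its groups did not overlap, as in 10 members (4.72% of all probe sets). The lowest was Rps15a, equally dim, with 3.14, 3.32, 3.15, 2.88 and 3.17 in Control kidneys, against 3.30, 3.33 and 3.42 in SDS kidneys (-0.22, SE 0.10, adjusted p = 0.769). Rps9, Rpl14, Rpl28 and Rps2 had 0.19, 0.19, 0.16 and 0.14, and Rpl35, Rpsa, Rps12 and Rpl34 had -0.19, -0.17, -0.17 and -0.16. The role members lay between -0.17 (Rpsa) and 0.14 (Rplp0).

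**Figure D4:**
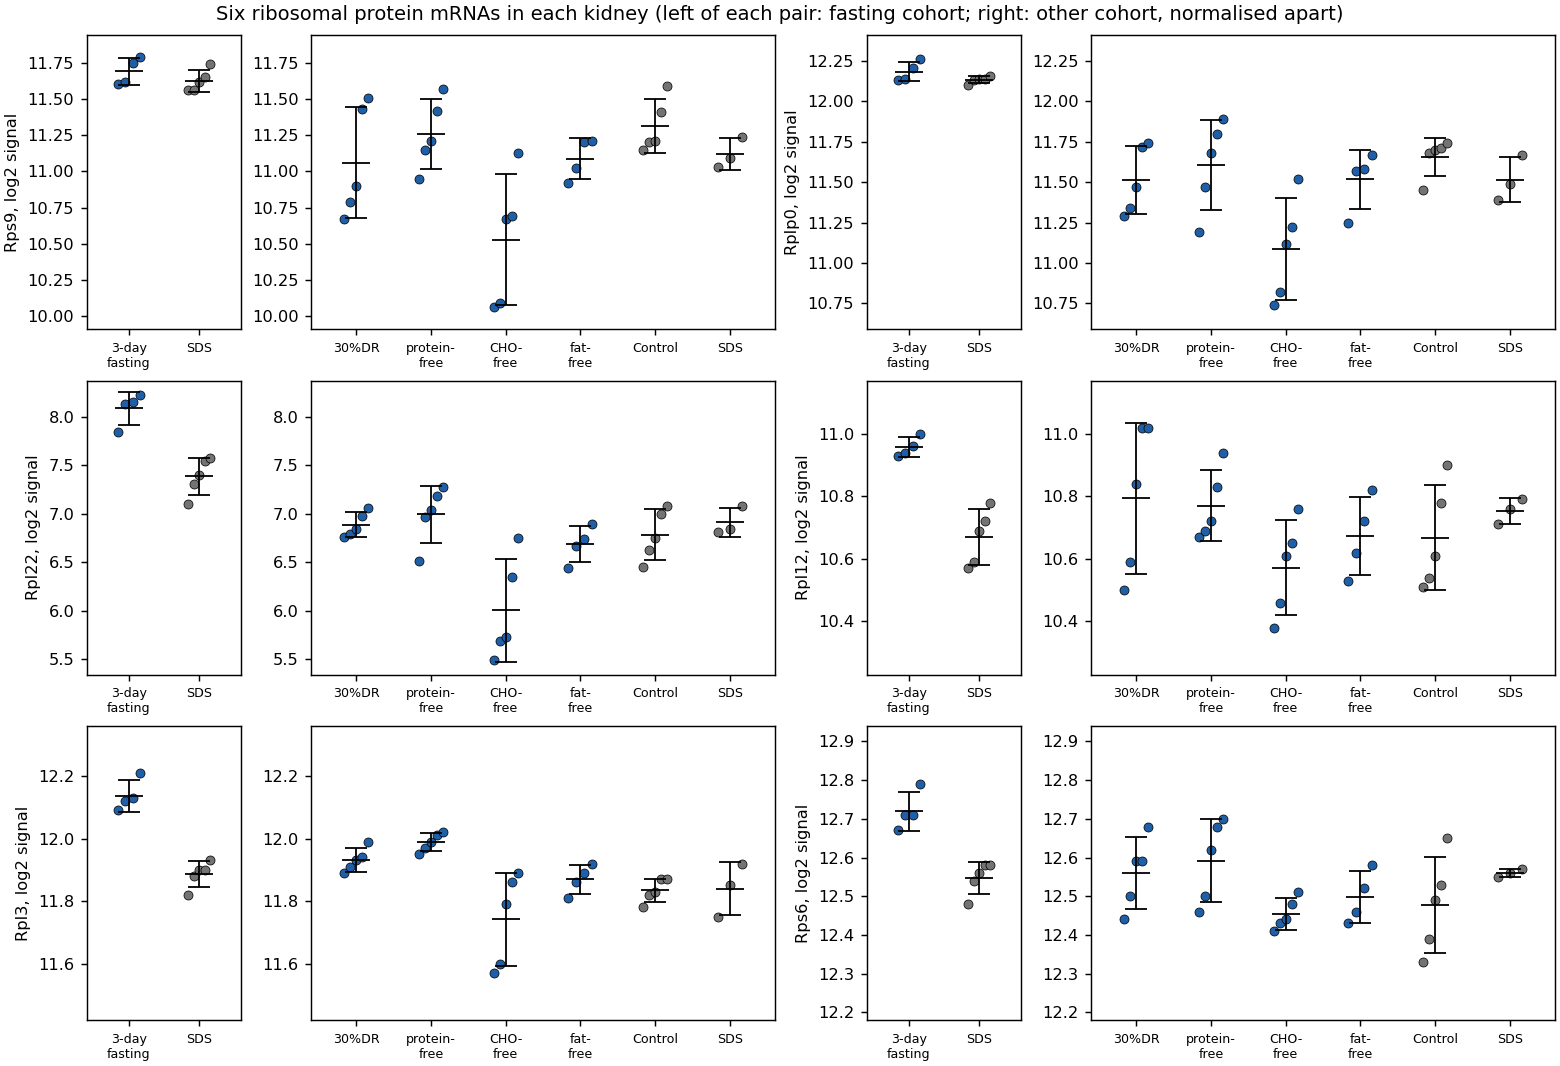
Log2 signal of Rps9, Rplp0, Rpl22 (probe set 1448398_PM_s_at), Rpl12, Rpl3 and Rps6 in each kidney, 1 point per mouse, with the mean and SD of each group, blue for diets and grey for their controls, and the 2 cohorts in separate panels because they were normalised apart. Rps9 spans 10.06 to 11.13 in CHO-free and 11.15 to 11.59 in Control kidneys, whereas Rps6 spans 12.41 to 12.51 in CHO-free and 12.33 to 12.65 in Control kidneys.

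The diets were also set against each other within their cohort. Protein-free kidneys had higher ribosomal protein mRNAs than CHO-free kidneys, with 24 of 135 probe sets higher and 4 lower at a false discovery rate under 5%, where 3.56% and 3.67% of all probe sets were, and with 5 DEPS higher and 0 lower (1.34% and 1.1% of all). By 1 probe set per gene, 14 rose and 2 fell (5.12% and 5.11% of all genes did) and 56 did not pass, 63 of 72 genes were above 0, and the median was 0.16 (all genes -0.01). The share of members that rose was above that of all probe sets by both rules. In 24 of the 135 members the groups did not overlap, where 5.75% of all probe sets did not. Rps9 was highest, with 10.95, 11.42, 11.15, 11.21 and 11.57 in protein-free kidneys, against 10.67, 11.13, 10.09, 10.06 and 10.69 in CHO-free kidneys (0.73, SE 0.17, adjusted p = 0.00879). Its groups overlapped by mouse TS49, the protein-free mouse with the largest Gapdh difference. The DEPS were Rps9 and Rpl9 (0.59) and, each by a dimmer probe set of its gene, Rpl22 (0.99), Rps13 (0.61) and Rpl10 (0.60). The brighter probe set of Rpl22 had 0.22 and did not pass. The brightest of Rps13 had 0.54 and passed the false discovery rate (adjusted p = 0.0211 by limma). Rplp0 (0.52), Rps3a1 (0.43), Rps4x (0.41), Rpl10 by its brighter probe set (0.30) and Rpl3 (0.25) rose too.

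The members that ran the other way were Rps19bp1 and Rpl7l1. Rps19bp1, the nucleolar partner of Rps19, had 7.64, 7.87, 7.77, 7.50 and 7.58 in protein-free kidneys, against 8.14, 8.02, 8.11, 8.10 and 7.68 in CHO-free kidneys (-0.34, SE 0.09, adjusted p = 0.0137). Its groups overlapped by CHO-free mouse TS36 alone. Rpl7l1 had 7.69, 7.52, 7.76, 7.76 and 7.68 in protein-free kidneys, against 7.98, 7.92, 8.16, 7.94 and 8.05 in CHO-free kidneys (-0.33, SE 0.09, adjusted p = 0.0243). Lower values also passed for 1 probe set each of Rps24 (-0.54) and Rpl13 (-0.40). With the Gapdh difference as a covariate, 10 members were higher and 4 lower (2.64% and 2.77% of all). Among them were Rps9 (0.45), Rplp0 (0.30), both probe sets of Rpl10 (0.39 and 0.31), the dimmer Rps6 probe set 1416142_PM_at (0.42) and Rps19bp1 (-0.36). Rpl22 alone was a DEPS, again by its dimmer probe set (0.75, adjusted p = 0.000875, with 1.87% of all probe sets DEPS). Without mice TS34 and TS35, 4 members passed and 1 was a DEPS (3.25% and 1.68% of all). Some markers of other cells were lower in the same comparison, with 2 of 2 intercalated cell markers (summed log2 levels of 15.39 to 16.04 in protein-free and 17.77 to 18.68 in CHO-free kidneys), 1 of 2 erythroid markers (15.42 to 16.45 in protein-free and 16.97 to 17.96 in CHO-free kidneys), 1 of 2 fibroblast markers (11.13 to 12.20 in protein-free and 12.61 to 13.19 in CHO-free kidneys) and Aqp2 (7.26 to 7.81 in protein-free and 8.16 to 8.89 in CHO-free kidneys). Summed levels of other lists reached higher in protein-free than in CHO-free kidneys, with overlapping ranges. These were leukocyte (28.95 to 32.39 against 27.72 to 29.74), endothelial (12.91 to 14.52 against 12.30 to 13.31) and thick ascending limb markers (24.61 to 25.24 against 24.07 to 24.95). The part of any of these markers in the member values was not tested.

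Fat-free kidneys differed from CHO-free kidneys in fewer members. The median over the 72 genes was 0.12 (all genes -0.00). DEPS were 2 higher and 0 lower (0.622% and 0.627% of all), namely Rpl22 (0.68, SE 0.19, adjusted p = 0.0454) and Rpl31 (0.61, SE 0.14, adjusted p = 0.0152), and 1 probe set each of Rps24 (-0.51) and Rpl27 (-0.33) was lower at a false discovery rate under 5%, so that 2 passed in each direction (1.31% of all higher and 1.5% lower). None of the 4 was the brightest of its gene. With the Gapdh difference in the fit 0 of 135 passed by limma (1.13% of all did), with 16 members (11.9%) at an unadjusted p under 0.05, against 11.3% of all. Without mice TS34 and TS35, 0 were DEPS and 0 passed (0.47% and 0.631% of all). Among the brightest probe sets, Rpl9 had 11.72, 12.14, 11.89 and 12.12 in fat-free kidneys, against 11.35, 12.00, 10.87, 11.02 and 11.71 in CHO-free kidneys (0.58, SE 0.19, adjusted p = 0.0944). These groups overlapped (5 of 135 members did not, 4.76% of all), as did those of Rpl27, with 10.37, 10.35, 10.57 and 10.39 in fat-free kidneys, against 10.76, 10.41, 11.12, 10.84 and 10.59 in CHO-free kidneys (-0.32, SE 0.11, adjusted p = 0.109). Both intercalated cell markers were lower in fat-free than in CHO-free kidneys (summed log2 levels of 16.10 to 17.08 in fat-free and 17.77 to 18.68 in CHO-free kidneys), and their part in the member values was not tested. Between protein-free and fat-free kidneys, 0 of 135 passed by limma (0.343% of all did), and 4 members (2.96%) were at an unadjusted p under 0.05, against 8.06% of all. The gene median was 0.06 (all genes -0.01), with values of -0.24 for Rpl7l1 to 0.18 for Rps28. Rps28, at the mRNA exit, had 12.12, 12.25, 12.23, 12.22 and 12.16 in protein-free kidneys, against 11.88, 12.09, 12.09 and 11.98 in fat-free kidneys (adjusted p = 0.694), and its groups did not overlap (6 members, 3.74% of all). Each of these 3 comparisons shares a group of mice with each of the others, so that the values of a gene in them are not independent.

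The paralogues did not follow a common direction. Rpl22l1, which takes the place of Rpl22 in the ribosome when that is lost, had -0.05 after fasting and -0.38 on the CHO-free diet (adjusted p = 0.71 and 0.17). Rps27l, induced by p53, had 0.05 and -0.07, Rpl36al had -0.08 and -0.22, and the dim Rpl39l had -0.17 and 0.05, and none of these passed. Rpl3l was the only paralogue that passed by its brightest probe set against a control diet (-0.53 on the CHO-free diet, adjusted p = 0.00582). It had 3.69, 3.08, 3.20, 3.03 and 3.09 in CHO-free kidneys, against 3.63, 3.97, 3.87, 3.58 and 3.71 in Control kidneys. Mouse TS31 lay among the Control values, and both groups lie near the median of all probe sets in this cohort (3.71).

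Other genes of translation, given by their brightest probe set, were mixed after fasting. Among 16 of 20 listed mRNAs that carry a TOP motif and encode other proteins, 5 rose, 2 fell and 9 did not pass, where 10.8% of all genes rose and 12.5% fell by the same rule, the shares to set beside each of these lists after fasting. Eif4b, a helper of the initiation helicase, was a DEPS (0.68), Npm1, the nucleolar chaperone, rose by 0.47, Eif3e by 0.32, Fau, which encodes a ubiquitin-like protein fused to the 40S protein S30, by 0.26, and Eef1d by 0.17. The histone chaperone Nap1l1 (-0.54) and the filament gene Vim (-0.41) fell. Of 28 initiation factors 6 rose and 2 fell, with Eif6, which keeps free 60S subunits apart from 40S, at 0.42 and the cap-binding Eif4e at -0.35. Of 69 assembly factors 8 rose, near the share of all genes, and 14 fell, with a median of -0.03, a DEPS in Utp20 (0.77) of the 40S pathway, and lower values of Imp4 (-0.57), Nhp2 (-0.55), Noc3l (-0.53) and Dkc1 (-0.41). Of 13 genes of the mTORC1 and S6 kinase axis, Eif4ebp1, the translation repressor that mTORC1 switches off, was a DEPS (1.09), Deptor (0.44) and Eif4ebp2 (0.39) rose, and Mtor fell (-0.56).

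In the other diets, few of these genes passed. After 30%DR the assembly factor Noc3l was a DEPS (-0.61). On the protein-free diet, Eif4b rose (0.39) and Nhp2 was a DEPS (-0.60). On the CHO-free diet, Nap1l1 was a DEPS (-0.89), with Eif3f (-0.44), Eif3l (-0.46), Eif3i (-0.43), Eif1b (-0.26) and Eef1b2 (-0.37) lower too. Of 69 assembly factors 5 rose and 4 fell, near the shares of all genes (5.85% and 6.38%), with DEPS in Pes1 (0.60), Imp4 (-1.14) and Polr1d (-0.59), a shared subunit of RNA polymerases I and III, and in the mTORC1 axis Eef2k (0.54) and Tsc1 (0.34) rose. Between protein-free and CHO-free kidneys, 6 of 16 other TOP mRNAs rose and 0 fell, where 5.12% and 5.11% of all genes did, among them the DEPS Npm1 (0.80), Nap1l1 (0.78) and Eif3e (0.64), and Deptor (0.70), Imp4 (1.01) and Nhp2 (-0.72) were DEPS as well. All these values are without the Gapdh covariate. With it, 0.693% of all probe sets were higher and 0.6% lower in CHO-free than in Control kidneys, against 5.51% and 4.85% without it.

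The mitochondrial ribosomal proteins, encoded by 73 nuclear genes for a separate ribosome, are the group most like the cytosolic one. After fasting, 4 rose and 26 fell by limma (10.8% and 12.5% of all genes), 55 of 73 were below 0, and the median was -0.15, against 0.13 for the cytosolic genes. On the protein-free diet, 0 rose and 6 fell (2.25% of all genes passed in either direction), with a DEPS in Mrpl34 (-0.62), 68 of 73 were below 0 and the median was -0.20, against 0.05 for the cytosolic genes. The median was -0.10 after 30%DR, -0.07 on the fat-free diet and 0.10 in Control against SDS kidneys, against 0.03, -0.01 and -0.03 for the cytosolic genes. On the CHO-free diet both groups were lower, with 1 mitochondrial gene higher and 15 lower (5.85% and 6.38% of all genes) and 5 DEPS, all lower (2.6% of all genes), led by Mrps12 (-1.02) and Mrps18a (-0.91), and a median of -0.16, against -0.10 for the cytosolic genes. When the Gapdh difference entered the fit, the mitochondrial median was 0.03 on the CHO-free diet and -0.10 on the protein-free diet, with -0.16 after fasting. The medians of the 2 groups describe these lists and were not tested against each other.

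**Figure D5:**
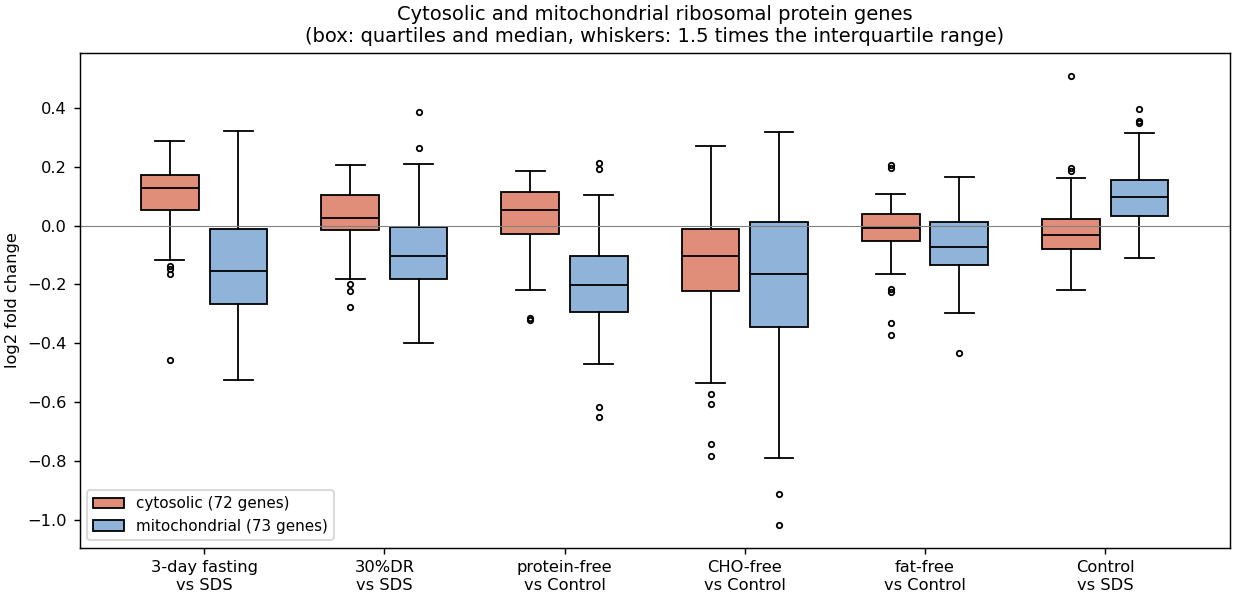
Log2 fold change of 72 cytosolic and 73 mitochondrial ribosomal protein genes in each comparison with its own control, by the brightest probe set of a gene (line is the median, box the quartiles, whiskers 1.5 times the interquartile range). After fasting the cytosolic median is 0.13 and the mitochondrial one -0.15, and on the CHO-free diet both lie below 0 (-0.10 and -0.16).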

How the data were processed

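Kidney RNA of 36 mice was hybridised to 1 Affymetrix HT MG-430 PM array each. The authors deposited log2 signals from RMA, which corrects the background, equalises the distribution of all arrays and summarises probes by median polish. It was run apart on the 9 arrays of the fasting cohort and the 27 others (no version is stated). RMA fixes each array's distribution, so values are relative to all other transcripts and give no absolute mRNA amount. No further normalization was made. The number of arrays limits the precision, and p-values measure the spread between mice. The paper states that, after normalization, it left out outlying arrays of the fasting group, the fat-free group and the SDS control of dietary restriction. The spread within these groups may be too low for that reason, which was not tested. Mice were housed several to a cage, and the labels name no cage. Mice of a diet may share a cage, which the p-values do not cover. Gene symbols came from the platform's annotation, in which 28898 probe sets have 1 symbol, 551 several and 15692 none.

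Each cohort was fitted with limma 3.58.1 in R 4.3.3 (default eBayes, no covariate), with Benjamini-Hochberg adjustment over all 45141 probe sets and the study's threshold for a DEPS (false discovery rate under 5% and fold change of at least 1.5). Each diet was set against its own control, and diets were compared as contrasts of the same model. The 3′ minus 5′ differences of the Gapdh and beta-actin control probe sets were compared by 2-sided exact permutation tests, adjusted over 6 comparisons. Start regions came from RefSeq (GRCm38.p6), and figures were drawn with matplotlib 3.10.9. The tests were tried on simulated data first.

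The members and gene lists were chosen with earlier results of these data known. Named are the 5 highest and 5 lowest members of each comparison by the brightest probe set of a gene, every DEPS, members with a fixed role (Rplp0, Rplp1, Rplp2, Rpsa, Rps6, Rpl11, Rpl13a, Rpl10, Rpl3) and paralogues, and other members that passed are given where a count is broken down. Alternatives were the 2 integrity covariates, a trended and robust prior, subtraction of each array's median, array weights, the 2 groups alone, 1 probe set per gene, the brighter probe sets alone, a threshold without fold change, no shared probe sets (endings s and x), the adipocyte markers as a covariate in the SDS comparisons, and leaving out mice.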

Additional observations from a re-analysis of the deposited data

Results flagged for a closer look

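Among 175 sets of values of 1 group of mice that were examined for a single mouse far from the rest, 8 stood out by Dixon's criterion, and chance gives about 1 in 20 such sets. Rplp0 had 11.45 in Control mouse TS26 (the other Control mice 11.68 to 11.74), and Rpl13a had 12.21 in Control mouse TS30 (others 11.84 to 11.94). Rpl11 had 11.74 in protein-free mouse TS52 (others 11.55 to 11.59). Rpl3l had 3.69 in CHO-free mouse TS31 (others 3.03 to 3.20), and Rps19bp1 had 7.68 in CHO-free mouse TS36 (others 8.02 to 8.14). Rps14 had 12.69 in SDS mouse K349 of the fasting cohort (others 12.54 to 12.58), and the same mouse had the highest mean of the 72 genes among its controls, 11.52 (others 11.45 to 11.47). The mean of the 72 genes was 11.22 in protein-free mouse TS49 (others 11.30 to 11.32), the mouse with the largest Gapdh 3′ minus 5′ difference of its group (2.19).

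The effects of 2 diets differed, by a contrast in limma, for 28 member probe sets in protein-free against CHO-free kidneys, of which 5 also had a fold change of at least 1.5. These were Rpl22 by its dimmer probe set 1448398_PM_s_at (0.99, adjusted p = 0.000689), Rps9 (0.73, adjusted p = 0.00879), Rps13 by probe set 1415912_PM_a_at (0.61, adjusted p = 0.0271), Rpl10 by probe set 1415942_PM_at (0.60, adjusted p = 0.00812) and Rpl9 (0.59, adjusted p = 0.0383). In fat-free against CHO-free kidneys, 4 passed, of which Rpl22 (0.68, adjusted p = 0.0454) and Rpl31 (0.61, adjusted p = 0.0152), both by dimmer probe sets, had such a fold change. The CHO-free mice, whose Gapdh differences lay between 0.98 and 2.45, enter each of these 7 differences.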

How the results depend on the processing

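Counts of members in the comparisons with CHO-free kidneys fell with either integrity covariate and when the CHO-free mice TS34 and TS35 were left out. With 1 probe set per gene, p-values were adjusted over those probe sets alone, so that these counts differ from the counts per gene of the full fit. After fasting, the 2 DEPS were 1 with the beta-actin covariate, 0 with 1 probe set per gene, 1 without shared probe sets and 29 with no fold change minimum, and the 29 members that passed were 6 with the beta-actin covariate, 50 with a trended and robust prior, 18 with array medians subtracted and 18 with 1 probe set per gene. On the CHO-free diet, the 7 DEPS were 0 with either covariate, 3 with 1 probe set per gene, 1 without mice TS34 and TS35, 4 without shared probe sets and 18 with no fold change minimum, and the 18 members that passed were 0 with either covariate, 10 with 1 probe set per gene and 2 without the pair. Between protein-free and CHO-free kidneys, the 5 DEPS were 1 with either covariate, 2 with the 2 groups alone, 2 with 1 probe set per gene, 1 without the pair, 3 without shared probe sets and 28 with no fold change minimum, and the 28 that passed were 14 with the Gapdh and 8 with the beta-actin covariate, 12 with the 2 groups alone, 17 with 1 probe set per gene and 4 without the pair. Between fat-free and CHO-free kidneys, the 2 DEPS were 0 with either covariate, 1 with the 2 groups alone, 0 with 1 probe set per gene, 0 without the pair, 1 without shared probe sets and 4 with no fold change minimum, and the 4 that passed were 0 with either covariate, 1 with the 2 groups alone, 0 with 1 probe set per gene, 0 without the pair and 2 without shared probe sets. With 1 mouse left out, DEPS numbered 1 to 2 after fasting, 5 to 10 on the CHO-free diet, 2 to 9 between protein-free and CHO-free and 0 to 6 between fat-free and CHO-free kidneys, and members that passed 14 to 32, 12 to 28, 12 to 37 and 0 to 17. After fasting, 14 passed without SDS mouse K348 or fasted mouse K343, 15 without SDS mouse K350 and 17 without fasted mouse K344, and Rpl22 was the only DEPS without SDS mouse K349. On the CHO-free diet 28 passed without CHO-free mouse TS32. Between protein-free and CHO-free kidneys, 12 passed without protein-free mouse TS54 or CHO-free mouse TS35, 13 without TS34, 17 without TS52 and 18 without TS50, and DEPS numbered 9 without TS32 and 2 without TS50, TS54, TS34 or TS35. Between fat-free and CHO-free kidneys, DEPS numbered 6 without TS32 and 0 without fat-free mouse TS37 or TS42 or CHO-free mouse TS35. Of single members, Rps10 turned to 0.0296 on the CHO-free diet with the beta-actin covariate (main value -0.40), and in all 79 passing results of single probe sets, 34 still passed with the Gapdh and 13 with the beta-actin covariate. The cause of these losses was not tested. Member counts in this section stand without the share of all probe sets under the same setting. They do not show whether members gained or lost more than the whole array did. Where mice or probe sets were left out, the fit also held fewer of them, and the part of this was not tested either. No paired analysis was possible because the labels give each mouse a number of its own, which no groups share.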
